A study of Mus musculus with 3 samples.

Results

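The genes described here make cholesterol and fatty acids. They are 34 of the 32285 genes that the count tables list, listed by name for their known roles, with earlier results of these data known: 18 enzymes of sterol synthesis, 13 enzymes of fatty acid synthesis, elongation and desaturation, and 3 regulators of both (Insig1, Srebf1 and Srebf2). The data are single-cell RNA sequencing (scRNAseq) counts from the back skin of wildtype, untreated mice. Male skin at P38 (postnatal day 38), female skin at 6 months and male skin at 12 months gave 1 library for each age. By the study's own description, hair follicles were in catagen in the youngest skin, mostly in anagen in the middle one and mixed in the oldest. Age can therefore not be told apart from sex, hair cycle stage or library, and no difference between ages was tested. The study describes a sort for epithelial cells carrying a Krt14-driven H2B-GFP transgene, while the submitters' labels describe all cells of dissociated skin loaded without a sort. How many animals went into a library was not given in the sources used here.

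Cells build both lipids from acetyl-CoA. Sterol synthesis runs through mevalonate, the isoprenoid diphosphates, squalene and lanosterol to cholesterol, and fatty acid synthesis runs through malonyl-CoA to palmitate, which elongases lengthen and desaturases unsaturate. The SREBP transcription factors, encoded by Srebf1 and Srebf2 and held back by Insig1 when sterols are plentiful, switch on genes of both pathways. In skin, sebocytes fill with lipid and burst to release sebum, and granular keratinocytes secrete cholesterol, fatty acids and ceramides into the cornified barrier.

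SREBP binds sterol regulatory elements and is known to act together with NF-Y, which binds CCAAT boxes, and with Sp1, which binds GC boxes. In the 250 bases before the transcription start (RefSeq promoters, GRCm38.p6), 27 of the 34 genes had an entry. The sterol regulatory element TCACNCCAC, searched on both strands, was present in 1 of 15 sterol genes and in 1.22% of all 27025 genes with an entry. The CCAAT box, searched on both strands and reading ATTGG on the other, was present in 14 of 15 sterol genes (93.3%), 3 of 9 fatty acid genes (33.3%), 3 of 3 regulators and 37.5% of all genes. The GC box GGGCGG was present in 14 of 15 sterol genes, 5 of 9 fatty acid genes (55.6%), 3 of 3 regulators and 35.4% of all genes. A match is a description of the letters and not a measured binding site. The sterol regulatory element of Hmgcs1, the synthase that makes HMG-CoA, lay 128 bases before the start, with 3 CCAAT boxes in the same promoter, and stands in capitals.
Hmgcs1 (chr13:119690184-119690252, + strand): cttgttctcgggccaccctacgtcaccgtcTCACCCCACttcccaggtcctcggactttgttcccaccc
The CCAAT box nearest to the start is shown in capitals for 5 sterol genes that were higher than in basal cells in both the sebaceous gland and the granular layer and have a promoter entry.
Mvk (chr5:114444235-114444268, + strand): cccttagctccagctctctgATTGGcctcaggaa
Pmvk (chr3:89454385-89454429, + strand): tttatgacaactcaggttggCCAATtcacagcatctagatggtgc
Idi1 (chr13:8885572-8885605, + strand): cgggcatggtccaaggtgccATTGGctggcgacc
Cyp51 (chr5:4104702-4104746, - strand): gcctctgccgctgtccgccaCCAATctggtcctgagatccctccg
Msmo1 (chr8:64733609-64733653, - strand): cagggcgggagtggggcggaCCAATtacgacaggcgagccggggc
No CCAAT box was found in the windows of Acat2, Acly, Acaca, Elovl4, Elovl6, Elovl7 and Fads2, as the bar plot of motif shares counts by pathway.

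**Figure D1:**
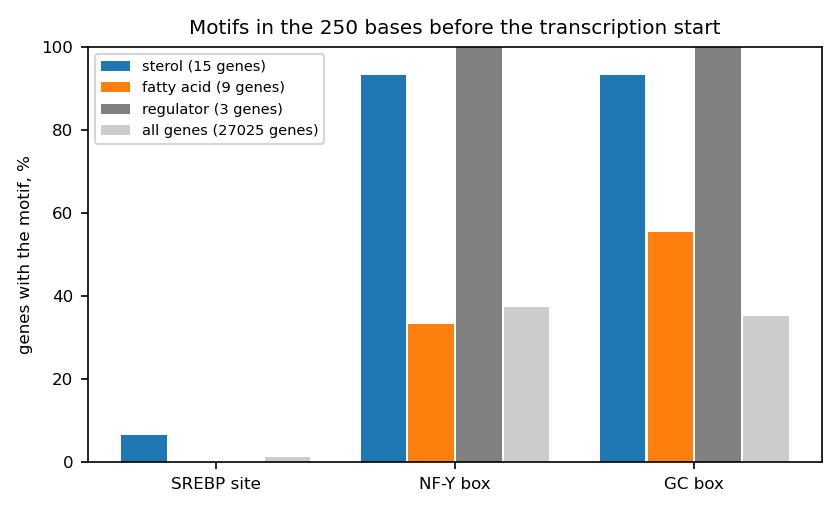
Share of genes with each motif in the 250 bases before the transcription start, in percent, for the sterol genes (15 with a promoter entry), fatty acid genes (9), regulators (3) and all genes (27025). CCAAT and GC boxes were present in 93.3% of the sterol genes, against 37.5% and 35.4% of all genes.

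Cells were put into 6 classes by lists of marker genes that hold none of the 34 genes: sebaceous gland, granular epidermis, upper follicle, basal epidermis, bulge and dermis. Of 8851 cells that passed the published filter, 8624 were analysed and 3072 fell into a class. The other 227 carried barcodes that more than 1 library held: 6 and 12 months shared 136 barcodes, and with them in, 40 of 96 sebaceous cells at 6 months and 40 of 73 at 12 months had a shared barcode. They were left out. Sebaceous cells numbered 113, 60 and 36 at P38, 6 months and 12 months, upper follicle cells 186, 218 and 188, basal cells 401, 129 and 608, and bulge cells 350, 131 and 154. Granular cells numbered 3, 50 and 16 and dermal cells 4, 128 and 297. A class needed 20 cells in a library, so granular cells were tested from the 6 months library alone and dermal cells from 6 and 12 months. Since the markers chose the cells, their levels describe a class and do not test its name. Of the sebaceous markers, Mgst1 was detected in 99.0% of the cells, Plin2 in 94.3%, Pparg in 51.2% and Awat2 in 23.4%. Of the granular markers, Lor was detected in 97.1% of the cells, Hrnr in 49.3% and Lce1a1 in 20.3%. Upper follicle markers were detected in granular cells too, with Cst6 in 98.6%, Krt17 in 88.4%, Krt79 in 44.9% and Klk10 in 15.9%. Krt14 was detected in all basal cells but also in 96.7% of sebaceous cells. Of the basal cells 30.8% lay close to the limits of their class, against 5.26% of the sebaceous and 1.45% of the granular cells. Granular cells were not required to lead over spinous markers, so their share leaves out that limit. The median cell kept by the filter had 16170 UMIs (unique molecular identifiers, 1 per captured transcript) at P38, only 1019 at 6 months and 11438.5 in the oldest library.

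For each class and library the UMIs of all its cells were added up, and levels are given as CPM (the UMIs of a gene scaled to the same fixed total for every class and library), without a correction for gene length because 3ʹ libraries count transcripts and not fragments. Classes were compared with edgeR's quasi-likelihood test on these sums with the library as a block, over 13106 genes. A gene was called when its adjusted p was under 0.05, and all 34 genes passed the filter on low counts. Differences are log2 fold changes over 3 libraries unless stated, ± the SE implied by the test. The fit shares its estimate of the spread between classes and genes, so this SE is not the spread of 1 comparison over its libraries. The libraries served as replicates of a class, although they differ in age, sex and depth. The block takes out shifts common to all classes of a library. The p-values rest on how class differences vary between libraries, by that shared estimate. Granular cells came from 1 library, so their p-values hold no spread of that class between libraries. A sum over a class does not by itself separate the number of cells with a transcript from its amount per cell, so counts of cells are given where few cells carried a gene. With highest mean level as the measure, 12 of 18 sterol genes, 8 of 13 fatty acid genes and 3 of 3 regulators peaked in the sebaceous gland, and 4 sterol genes and 1 fatty acid gene in granular cells, whose mean is that of 1 library. The sebaceous peak of Elovl4 rests on the 6 months library, and its granular and upper follicle values were higher at P38 and 12 months. Scd2, Fads1 and Fads2 peaked in the dermis, and Mvk, Ebp and Elovl7 in the upper follicle. The heat map of levels by class and library shows these blocks.

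**Figure D2:**
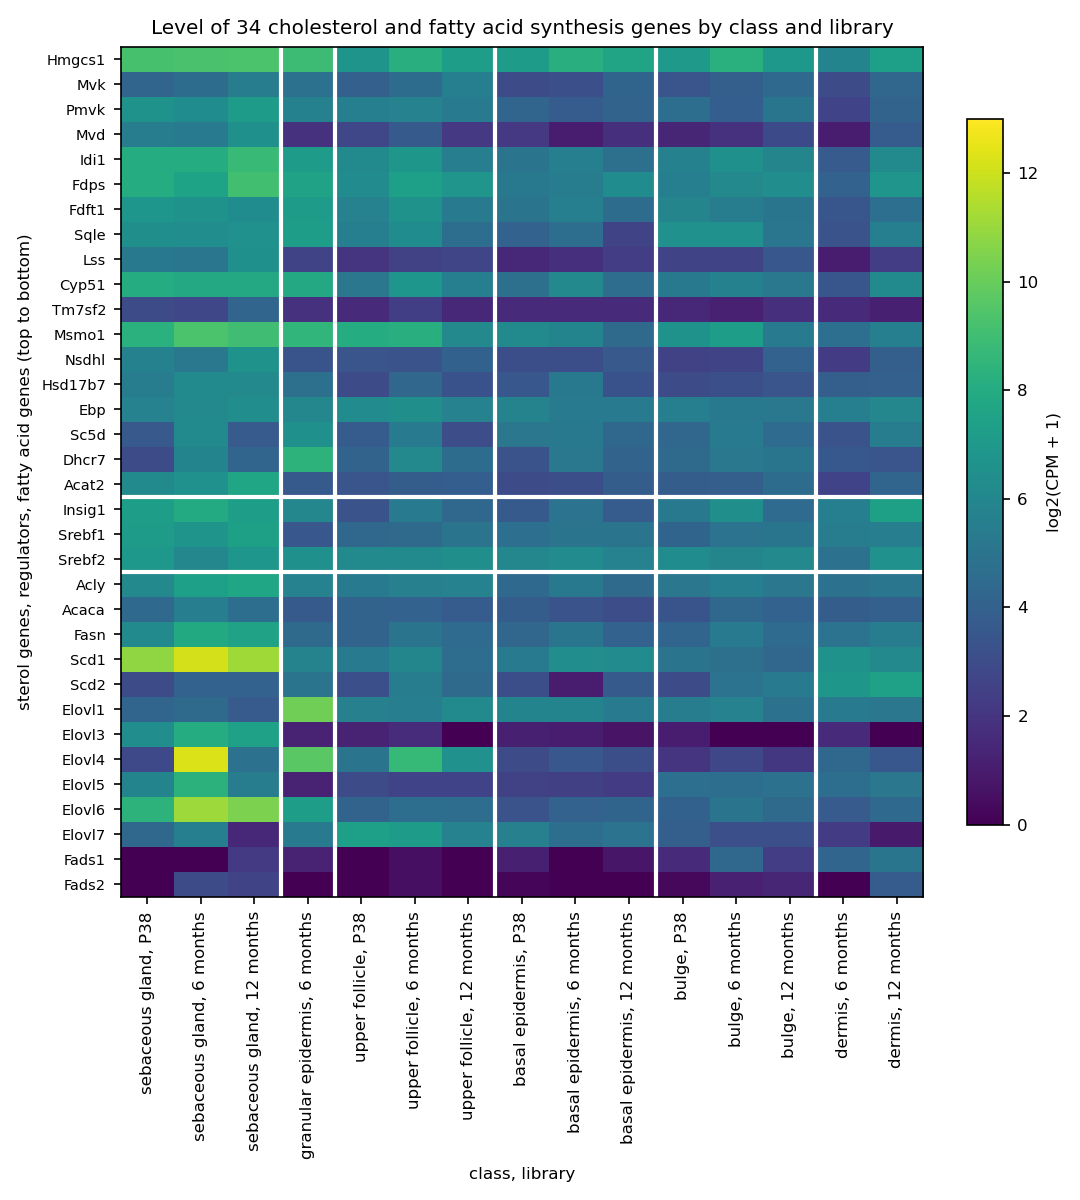
Level of each of the 34 genes as log2(CPM + 1), with genes in rows (sterol genes, regulators, fatty acid genes) and classes by library in columns; classes short of 20 cells per library are left out. Sebaceous columns are the brightest for most sterol genes, and Elovl1 and Dhcr7 are brightest in the granular column.

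The first comparison asks which of these genes sebaceous cells express above the basal epidermis. Of the 34 genes 25 were higher and 1 was lower in the sebaceous gland, where 9.84% of all genes tested were called higher and 11.4% lower. By pathway, 15 of 18 sterol genes, 8 of 13 fatty acid genes and 2 of 3 regulators were higher. The median log2 fold change was 2.48 for sterol genes and 2.60 for fatty acid genes, against -0.03 for all genes tested. Of the 26 called genes, 25 moved the same way in all 3 libraries, with no overlap between the sebaceous and basal libraries, the exception being Fads2. The calls were made on these same libraries and the share among all genes was not counted, so this adds no support. Without the P38 library, which held the most sebaceous cells, 15 genes were called, and the share of all genes called went from 21.3% to 11.2%. With the shared barcodes kept in, 26 genes were called, beside 23.5% of all genes.

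Sterol synthesis starts with Acat2, the cytosolic thiolase that joins acetyl-CoA units. It held 74.6, 96.1 and 196 CPM in sebaceous cells at P38, 6 months and 12 months and 7.07, 7.57 and 13.4 CPM in basal cells, so each sebaceous value stood above each basal one (log2 fold change 3.46 ± 0.29, adjusted p = 6.27e-06). Hmgcs1, the next enzyme, held 601, 622 and 642 CPM against 139, 298 and 194 CPM (log2 fold change 1.49 ± 0.45, adjusted p = 0.0386). The sebaceous values lay close together while the basal value was highest at 6 months. Mvk, mevalonate kinase, held 18.2, 22.9 and 42.8 CPM against 7.07, 8.08 and 17.6 CPM (log2 fold change 1.19 ± 0.25, adjusted p = 0.00486). Pmvk, the following kinase, held 99.1, 78.8 and 143 CPM against 17.8, 12.6 and 16.7 CPM (log2 fold change 2.56 ± 0.33, adjusted p = 1.72e-04). Mvd, the decarboxylase that makes isopentenyl diphosphate, was near absent from basal cells, with 3.41, 1.01 and 2.47 CPM, and held 44.9, 41.6 and 92.7 CPM in sebaceous cells (log2 fold change 4.29 ± 0.64, adjusted p = 7.23e-04). Mvd showed the largest difference among the sterol genes, 19.6-fold. Idi1, which isomerises the isoprenoid unit, held 260.1, 267 and 449 CPM against 30.8, 48.0 and 27.0 CPM (log2 fold change 3.04 ± 0.59, adjusted p = 0.00475). Fdps, farnesyl diphosphate synthase, held 261, 186 and 528 CPM against 37.5, 43.4 and 78.5 CPM, with the highest value of both classes at 12 months (log2 fold change 2.41 ± 0.49, adjusted p = 0.0057).

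Fdft1, squalene synthase, commits the pathway to sterols. It held 114, 100.4 and 80.2 CPM in sebaceous cells and 30.5, 48.0 and 23.3 CPM in basal cells (log2 fold change 1.41 ± 0.42, adjusted p = 0.0317). Sqle, squalene epoxidase, held 88.1, 81.7 and 94.5 CPM against 15.9, 25.2 and 5.42 CPM (log2 fold change 2.54 ± 0.69, adjusted p = 0.0261). The sebaceous values of Sqle were close to each other while the basal ones varied. Lss, lanosterol synthase, was low in basal cells, at 1.83, 2.52 and 4.12 CPM, and reached 36.9, 33.0 and 90.9 CPM in sebaceous cells, 16.3-fold higher (log2 fold change 4.03 ± 0.33, adjusted p = 5.57e-06). Cyp51, the lanosterol demethylase, held 264, 228 and 226 CPM against 27.0, 68.2 and 24.0 CPM (log2 fold change 2.58 ± 0.65, adjusted p = 0.0195). Tm7sf2, a sterol reductase, was the least detected of the called sterol genes, with 17, 4 and 10 UMIs in sebaceous and 15, 4 and 16 in basal cells (log2 fold change 2.09 ± 0.54, adjusted p = 0.0155). Msmo1, the methylsterol oxidase, held 319.9, 639 and 512 CPM against 74.0, 57.6 and 21.9 CPM (log2 fold change 3.26 ± 0.58, adjusted p = 0.00303). Nsdhl, the sterol dehydrogenase that acts after it, held 51.3, 35.8 and 96.3 CPM against 7.6, 7.57 and 11.3 CPM (log2 fold change 2.58 ± 0.29, adjusted p = 5.79e-05). Hsd17b7, the sterol ketoreductase, held 45.3, 71.7 and 67.8 CPM against 10.5, 37.9 and 8.83 CPM (log2 fold change 1.76 ± 0.38, adjusted p = 0.00532). The lowest sebaceous value of Hsd17b7 lay little above the basal value at 6 months.

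The sterol genes without a call act at the end of the pathway. Ebp, the sterol isomerase, held 53.8, 67.4 and 82.0 CPM in sebaceous and 55.0, 40.4 and 40.8 CPM in basal cells (log2 fold change 0.38 ± 0.28, adjusted p = 0.372). Sc5d, the lathosterol oxidase, held 11.4, 74.5 and 12.5 CPM against 34.7, 37.4 and 19.9 CPM (log2 fold change -0.42 ± 0.74, adjusted p = 0.755), and the libraries went both ways. Dhcr7, the reductase that makes cholesterol in the final step, held 6.78, 57.3 and 17.8 CPM against 9.17, 35.3 and 16.8 CPM (log2 fold change 0.04 ± 0.39, adjusted p = 0.974). Ranges of both classes overlapped for all 3 genes.

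Both called regulators were higher in sebaceous cells. Srebf1, which encodes the SREBP form known for fatty acid genes, held 147, 106 and 166 CPM against 26.2, 31.3 and 31.0 CPM (log2 fold change 2.09 ± 0.23, adjusted p = 4.67e-05). Insig1, which retains SREBP in the endoplasmic reticulum and is itself an SREBP target, held 157, 249 and 153 CPM against 11.8, 29.8 and 12.8 CPM (log2 fold change 3.30 ± 0.61, adjusted p = 0.00385). Srebf2, which encodes the form known for sterol genes, held 119.9, 63.1 and 114 CPM against 63.5, 75.7 and 54.1 CPM and was not called (log2 fold change 0.41 ± 0.34, adjusted p = 0.447).

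The enzymes that build palmitate were each higher in sebaceous cells, by 2.53-fold to 6.04-fold. Acly, which splits citrate into acetyl-CoA, held 68.2, 162 and 201 CPM against 21.0, 37.4 and 21.8 CPM in basal cells (log2 fold change 2.19 ± 0.28, adjusted p = 1.70e-04). Acaca, acetyl-CoA carboxylase, held 20.8, 45.9 and 25 CPM against 13.1, 9.09 and 7.42 CPM (log2 fold change 1.34 ± 0.34, adjusted p = 0.0133). Fasn, fatty acid synthase, held 70.3, 239 and 182 CPM against 18.9, 31.8 and 16.1 CPM (log2 fold change 2.60 ± 0.31, adjusted p = 9.79e-05). All 3 were lowest in the sebaceous cells of the P38 library.

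Among desaturases and elongases stood the largest fold changes of the 34 genes. Scd1, the stearoyl-CoA desaturase, held 1829.5, 4612 and 2271 CPM in sebaceous cells against 41.1, 80.8 and 76.9 CPM in basal cells, 36.1-fold higher (log2 fold change 5.17 ± 0.39, adjusted p = 4.52e-06). T cells, which are not known to make sebum lipids, held 19.7 and 18.2 CPM of Scd1 at 6 and 12 months, below each basal value. Its paralog Scd2 held 6.78, 15.8 and 16.0 CPM against 7.6, 1.01 and 12.0 CPM and was not called (log2 fold change 0.39 ± 0.73, adjusted p = 0.768). Elovl6, which takes palmitate to stearate, held 344, 2189 and 1399.6 CPM against 9.04, 16.2 and 17.4 CPM, 69.8-fold higher (log2 fold change 6.13 ± 0.43, adjusted p = 3.32e-06). Elovl3, an elongase known from sebaceous glands and brown fat, held 80.5, 261 and 171 CPM against 1.18, 1.01 and 0.589 CPM (log2 fold change 7.06 ± 0.61, adjusted p = 1.65e-05). Its basal values rested on 9, 2 and 5 UMIs, and no tested library of another class held more than 2.18 CPM. Elovl5, which lengthens polyunsaturated fatty acids, held 56.4, 325 and 42.8 CPM against 4.85, 4.54 and 3.77 CPM (log2 fold change 4.50 ± 0.65, adjusted p = 8.58e-04).

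Elovl1, which makes very long saturated chains for ceramides, went the other way. It held 17.8, 21.5 and 12.5 CPM in sebaceous and 57.9, 57.1 and 40.9 CPM in basal cells, 3.33-fold lower (log2 fold change -1.73 ± 0.29, adjusted p = 9.64e-04). Elovl7 held 20.3, 47.3 and 1.78 CPM against 49.8, 24.7 and 29.6 CPM with libraries on both sides (log2 fold change -1.0 ± 0.53, adjusted p = 0.217). The desaturases of polyunsaturated fatty acids were barely detected in either class: Fads2 had 0, 5 and 3 UMIs in sebaceous and 1, 0 and 0 in basal cells, and Fads1 had 0, 0 and 2 and 9, 0 and 6. Fads2 was called higher on these few UMIs and no fold change is given for it. It kept its call in 6 of the 12 alternatives that tested it.

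**Figure D3:**
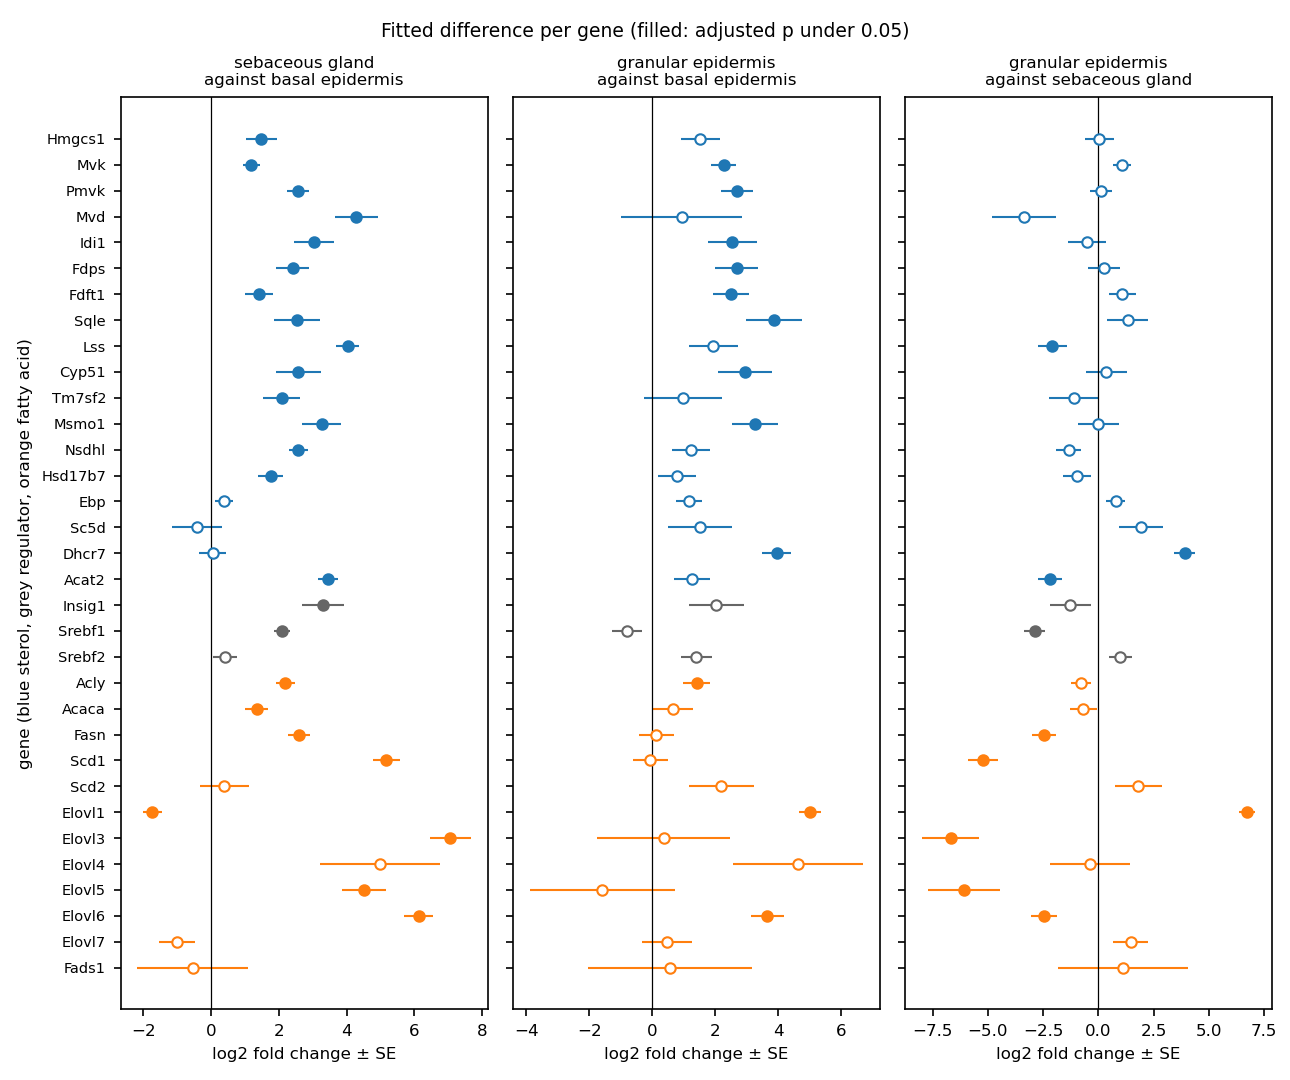
Fitted log2 fold change ± SE per gene (horizontal axis) in 3 comparisons, filled where the adjusted p was under 0.05; sterol genes are blue, regulators grey and fatty acid genes orange, and Fads2 is left out because its counts are too few for a fold change. In sebaceous cells 25 of the 34 genes were higher than in basal cells, while granular cells showed 12 higher, 9 of them sterol genes.

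Elovl4, the elongase that makes the ultra-long chains of the skin barrier, was carried by few sebaceous cells. It held 6.36, 5008 and 28.5 CPM at P38, 6 months and 12 months against 6.94, 10.6 and 7.77 CPM in basal cells, and was not called (log2 fold change 4.99 ± 1.77, adjusted p = 0.0769). The 6 months value stood far above the other libraries. Of its 3493 UMIs at 6 months, 3432 came from 5 of the 60 cells, and the other 55 cells held 100.5 CPM. Mgst1 was detected in all 5 of these cells and in 53 of the other 55. Awat2, an enzyme of wax ester synthesis, was detected in 4 of 5, against 15 of the other 55. Plin2 was detected in 4 against 48, Ldhb in 4 against 43 and Cidea in 4 against 30. Far2 was detected in 3 against 22, Pparg in 2 against 20 and Mc5r in 2 against 13. The 5 cells held 428 to 4766 genes each. Other sebaceous genes were also uneven at 6 and 12 months: the 5 cells richest in each gene carried 86.9% and 71.1% of Scd1 and 82.3% and 85% of Elovl6 UMIs, against 22% and 38.2% at P38. The 5 deepest of all sebaceous cells held 22% of the UMIs of that class at 6 months, 26.8% at 12 months and 7.46% at P38. Among sebaceous cells with at least 1000 genes, the median cell held 785, 297 and 466 CPM of Scd1, against medians of 0 CPM in upper follicle cells of all 3 libraries. Without the 5 deepest cells of each class and library, 24 of the 34 genes were called against basal cells, beside 19.2% of all genes. Those cells were ranked by all their UMIs and not by these genes. Calls without the cells richest in each gene were not tested.

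**Figure D4:**
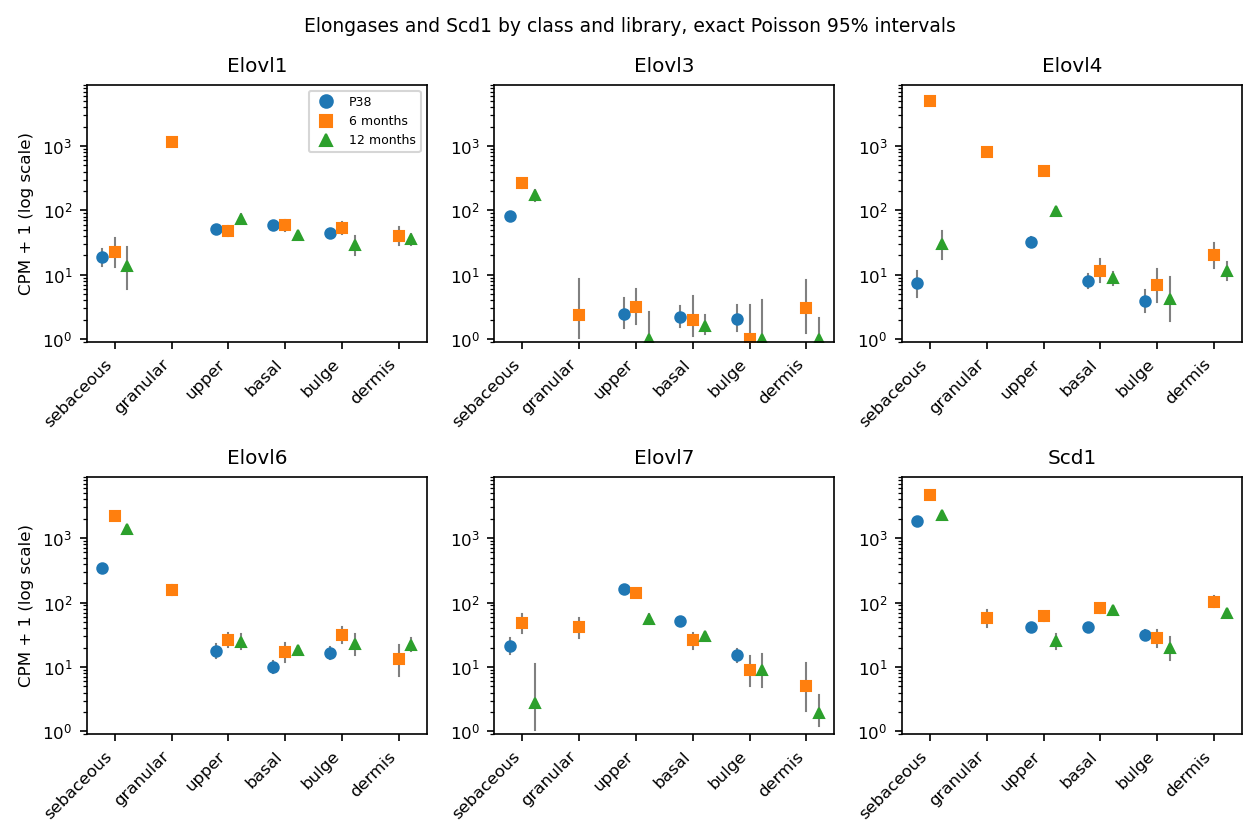
CPM + 1 (log scale) of 5 elongases and Scd1 in each class, 1 point per library with its exact Poisson 95% interval, which covers counting error only; classes short of 20 cells per library are left out. Elovl3, Elovl6 and Scd1 stand highest in all 3 sebaceous libraries, Elovl1 in granular cells, Elovl7 in the upper follicle, and Elovl4 reaches 5008 CPM in sebaceous cells at 6 months only.

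The upper follicle adjoins the sebaceous gland and was compared with it next. Against it, 15 of the 34 genes were higher and 2 lower in sebaceous cells, where 10.9% of all genes were called higher and 14.4% lower. The higher ones were 7 sterol genes (Hmgcs1, Mvd, Idi1, Lss, Nsdhl, Hsd17b7 and Acat2), 6 fatty acid genes (Acly, Fasn, Scd1, Elovl3, Elovl5 and Elovl6) and Insig1 and Srebf1. With the shared barcodes kept in, 21 genes were called, beside 27.4% of all genes in place of 25.3%. Lss held 2.86, 4.8 and 5.61 CPM in upper follicle cells (log2 fold change 3.26 ± 0.33, adjusted p = 3.10e-05), and Acat2 held 9.74, 13.1 and 13.8 CPM (log2 fold change 2.94 ± 0.29, adjusted p = 2.45e-05). Scd1 held 40.7, 60.6 and 24.2 CPM in the upper follicle (log2 fold change 5.80 ± 0.41, adjusted p = 4.94e-06). Elovl1 and Elovl7 were lower in sebaceous cells. Elovl7 held 161, 137 and 54.0 CPM in upper follicle cells (log2 fold change -2.66 ± 0.52, adjusted p = 0.00379). Several sterol genes were not called: Mvk held 14.9, 23.6 and 47.1 CPM there (log2 fold change -0.22 ± 0.25, adjusted p = 0.549), and Msmo1 265, 289.6 and 69.5 CPM (log2 fold change 1.17 ± 0.55, adjusted p = 0.145).

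Against basal cells, the upper follicle had 5 of the 34 genes called, all higher, where 9.51% of all genes were called higher and 7.89% lower. These were Mvk (log2 fold change 1.41 ± 0.24, adjusted p = 0.00131), Pmvk (log2 fold change 1.72 ± 0.32, adjusted p = 0.00276), Msmo1 (log2 fold change 2.10 ± 0.55, adjusted p = 0.0255), Acly (log2 fold change 0.94 ± 0.27, adjusted p = 0.0311) and Elovl7 (log2 fold change 1.66 ± 0.46, adjusted p = 0.0283). Pmvk held 48.1, 53.2 and 38.4 CPM in upper follicle cells, above each basal library. The upper follicle and basal ranges overlapped for Mvk and Msmo1, although each library had the higher value in its upper follicle cells. The count was 1 without the library block and 2 without the P38 library, where 9.16% and 8.49% of all genes were called in place of 17.4%.

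The second main comparison asks which of these genes granular cells express above the basal layer. Granular cells of the 6 months library were the only ones numerous enough, so the fit assumed that they vary like the other classes. Their median was 1879.5 UMIs, against 15360 in basal cells of that library, and 23 of the 50 held at least 1000 genes. Of the 34 genes 12 were higher and 0 lower than in basal cells, where 11.7% of all genes were called higher and 9.47% lower. They were 9 of 18 sterol genes and 3 of 13 fatty acid genes. The median log2 fold change was 2.11 for sterol genes and 0.57 for fatty acid genes, against -0.56 for all genes tested. The 5 deepest of the 50 granular cells held 33.3% of their UMIs, and 11 genes were called without such cells, beside 17.6% of all genes. Without the cells in the top 5% of UMIs, 7 were called, and the share of all genes called went from 21.1% to 8.18%.

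The granular cells at P38 and 12 months, 3 and 16 in number, entered no test but are given beside the 6 months value. Elovl1 held 906, 1148 and 625 CPM in granular cells at P38, 6 months and 12 months against 57.9, 57.1 and 40.9 CPM in basal cells (log2 fold change 5.01 ± 0.34, adjusted p = 1.09e-06). All 3 granular values stood above all basal ones, and the fitted fold was 32.2. The fit also used scaling factors (TMM), which the CPM leave out: 0.664 for granular and 1.03 for basal cells at 6 months. Without these factors the median log2 fold change of all genes was -1.15 in place of -0.56. The share of all genes called was then 29.5% in place of 21.1%. Dhcr7 held 51.0, 339.5 and 161 CPM against 9.17, 35.3 and 16.8 CPM (log2 fold change 3.95 ± 0.46, adjusted p = 7.39e-05), again without overlap. Sqle held 204, 154 and 82.5 CPM against 15.9, 25.2 and 5.42 CPM (log2 fold change 3.86 ± 0.89, adjusted p = 0.0118). Elovl6 held 0, 155 and 70.7 CPM against 9.04, 16.2 and 17.4 CPM (log2 fold change 3.66 ± 0.51, adjusted p = 3.33e-04), and the 3 cells at P38 had none. Msmo1, at 204, 372 and 259 CPM, stood above all basal libraries (log2 fold change 3.26 ± 0.74, adjusted p = 0.0106). Cyp51, the demethylase, held 51.0, 226 and 78.6 CPM (log2 fold change 2.94 ± 0.85, adjusted p = 0.0337), with the P38 value inside the basal range. The early enzymes were also higher: Fdps held 217, 180.5 and 295 CPM (log2 fold change 2.68 ± 0.67, adjusted p = 0.0162) and Pmvk 89.3, 52.1 and 118 CPM (log2 fold change 2.70 ± 0.50, adjusted p = 0.00193). Idi1 held 229.6, 142 and 39.3 CPM (log2 fold change 2.54 ± 0.78, adjusted p = 0.0426), and its 12 months value lay within the basal range.

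Fdft1, Mvk and Acly complete the 12. Fdft1 held 51.0, 138 and 78.6 CPM in granular cells (log2 fold change 2.50 ± 0.57, adjusted p = 0.00895), Mvk had 0, 21 and 18 UMIs (log2 fold change 2.28 ± 0.40, adjusted p = 0.0013) and Acly held 51.0, 53.5 and 82.5 CPM (log2 fold change 1.42 ± 0.43, adjusted p = 0.0313). Elovl4 held 472, 803 and 475 CPM in granular cells, above every basal library, but was not called (log2 fold change 4.63 ± 2.07, adjusted p = 0.151). Scd1 held 38.3, 56.1 and 141 CPM (log2 fold change -0.05 ± 0.54, adjusted p = 0.983) and Fasn 12.8, 21.4 and 47.1 CPM (log2 fold change 0.13 ± 0.55, adjusted p = 0.91), neither called. Hmgcs1 held 625, 487 and 283 CPM, and at 12 months its value lay below the highest basal one (log2 fold change 1.53 ± 0.63, adjusted p = 0.11).

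Granular and sebaceous cells were then compared with each other, a comparison added after values had been seen. Of the 34 genes 2 were higher and 8 lower in granular cells, where 13.4% of all genes were called higher and 10.9% lower. Elovl1 (log2 fold change 6.74 ± 0.37, adjusted p = 3.24e-07) and Dhcr7 (log2 fold change 3.91 ± 0.48, adjusted p = 8.77e-05) were higher in granular cells. Lower were Scd1 (log2 fold change -5.23 ± 0.67, adjusted p = 1.47e-04), Srebf1 (log2 fold change -2.88 ± 0.47, adjusted p = 6.53e-04), Elovl3 (adjusted p = 0.00297), Fasn (log2 fold change -2.46 ± 0.56, adjusted p = 0.006), Elovl6 (log2 fold change -2.47 ± 0.59, adjusted p = 0.00893), Acat2 (log2 fold change -2.19 ± 0.54, adjusted p = 0.0095), Elovl5 (adjusted p = 0.0211) and Lss (log2 fold change -2.09 ± 0.65, adjusted p = 0.0332). Elovl3 and Elovl5 each had 1 UMI in the 50 granular cells, so the size of their fitted changes is no measure of the fold. The count of 10 was 13 with the shared barcodes kept in and 5 without the cells in the top 5% of UMIs, where 31.5% and 10.9% of all genes were called in place of 24.3%. The median log2 fold change was 0.09 for the sterol genes and -0.77 for the fatty acid genes, against -0.55 for all genes tested. Sterol genes without a call include Msmo1, at 0.00 ± 0.94, and Hmgcs1, at 0.05 ± 0.67 on the log2 scale.

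Bulge cells, which include the hair follicle stem cells, differed from basal cells in these genes about as often as over all genes. Of the 34 genes 2 were higher and 2 lower, where 7.47% of all genes were called higher and 5.91% lower. Elovl5 held 26.3, 25 and 29.2 CPM in bulge cells against 4.85, 4.54 and 3.77 CPM (log2 fold change 2.38 ± 0.63, adjusted p = 0.0312), and Lss 5.39, 5.26 and 10.5 CPM against 1.83, 2.52 and 4.12 CPM (log2 fold change 1.17 ± 0.35, adjusted p = 0.0435). Scd1 was lower, at 30.7, 26.9 and 18.6 CPM (log2 fold change -1.52 ± 0.36, adjusted p = 0.0151), as was Elovl7, at 14.1, 7.88 and 8.11 CPM (log2 fold change -2.06 ± 0.52, adjusted p = 0.0235). The libraries of both classes did not overlap for any of the 4, which describes these calls and adds no support to them. Sqle held 95.4, 94.0 and 33.2 CPM in bulge cells, above each basal library, but was not called (log2 fold change 2.19 ± 0.66, adjusted p = 0.0561). The count of 4 was 2 without the library block, 2 without the 12 months library and 1 without the P38 library. There 6.9%, 8.79% and 7.35% of all genes were called in place of 13.4%. With the shared barcodes kept in the count was 6, beside 13.6% of all genes. Proliferation genes summed to 45.8, 19.7 and 289 CPM in bulge cells at the 3 ages, and their part in these values was not tested.

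Dermal cells, measured at 6 and 12 months, had 5 genes higher and 2 lower than basal cells, where 21.6% of all genes were called higher and 14.0% lower. Scd2 and Fads1, both low in sebaceous cells, were among them. Scd2 held 116 and 171 CPM at 6 and 12 months against 7.6, 1.01 and 12.0 CPM in basal cells (log2 fold change 3.55 ± 0.69, adjusted p = 0.00252), and Fads1, a desaturase of polyunsaturated chains, 18.2 and 31.7 CPM against 1.18, 0 and 0.707 CPM (log2 fold change 4.28 ± 0.97, adjusted p = 0.00483). Fads2 was called on 0 and 43 UMIs at 6 and 12 months, all from the later library. Insig1 held 48.5 and 168 CPM (log2 fold change 2.62 ± 0.68, adjusted p = 0.0123) and Elovl5 25.3 and 35.0 CPM (log2 fold change 2.63 ± 0.70, adjusted p = 0.0138). Elovl7, at 4.04 and 0.906 CPM, was lower (log2 fold change -4.12 ± 0.81, adjusted p = 0.00222), as was Dhcr7, at 11.1 and 9.66 CPM with overlapping ranges (log2 fold change -1.21 ± 0.45, adjusted p = 0.0498). Without the 12 months library Insig1 lost its call, with an estimate of 0.56 on the log2 scale.

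Sebaceous and basal cells lay farther apart in the sum of all 13 fatty acid genes than in that of the 18 sterol genes. Without Scd1 this did not hold at P38, where the fatty acid sums were 691 CPM in sebaceous and 192 CPM in basal cells. Sterol genes summed to 2358, 2709.5 and 3391 CPM in sebaceous cells at P38, 6 months and 12 months, and to 510.5, 781 and 528 CPM in basal cells. Fatty acid genes summed to 2521, 12934 and 4361 CPM in sebaceous and 233, 274 and 235 CPM in basal cells. Each sebaceous sum lay above each basal sum. Granular cells at 6 months held 2333 CPM of sterol and 2325 CPM of fatty acid genes, of which Elovl1 made up 49.4%. The upper follicle held 864, 1471 and 708 CPM of sterol and 388, 831 and 386 CPM of fatty acid genes, and the bulge 676, 982 and 617 and 206, 311 and 225 CPM. The dermis held 249 and 755 CPM of sterol genes at 6 and 12 months and 411 and 478 CPM of fatty acid genes. T cells held 500.4 and 609 CPM of sterol and 355 and 350.2 CPM of fatty acid genes at those ages, the latter above the basal sums. The part of free RNA in the low levels was not tested.

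The mean log2 ratio of the sterol to the fatty acid sum was 1.61 ± 0.14 (SD, n = 3) in the bulge, 1.27 ± 0.21 in basal cells and 0.95 ± 0.18 in the upper follicle. It was -0.90 ± 1.18 in the sebaceous gland, from -0.10 at P38 and -0.36 at 12 months to -2.26 at 6 months, and every sebaceous value lay below every value of the 3 other epithelial classes with 3 libraries. Scd1 alone made up 72.6% of the sebaceous fatty acid sum at P38 and 52.1% at 12 months, and Elovl4 38.7% at 6 months. Without Scd1 the sebaceous ratio was 0.28 ± 1.73, and the P38 value of 1.77 then lay within the basal range. The ratio was 0.00 in granular cells and -0.03 ± 0.98 (n = 2) in the dermis. No test was run on these sums because the genes were listed with results known.

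**Figure D5:**
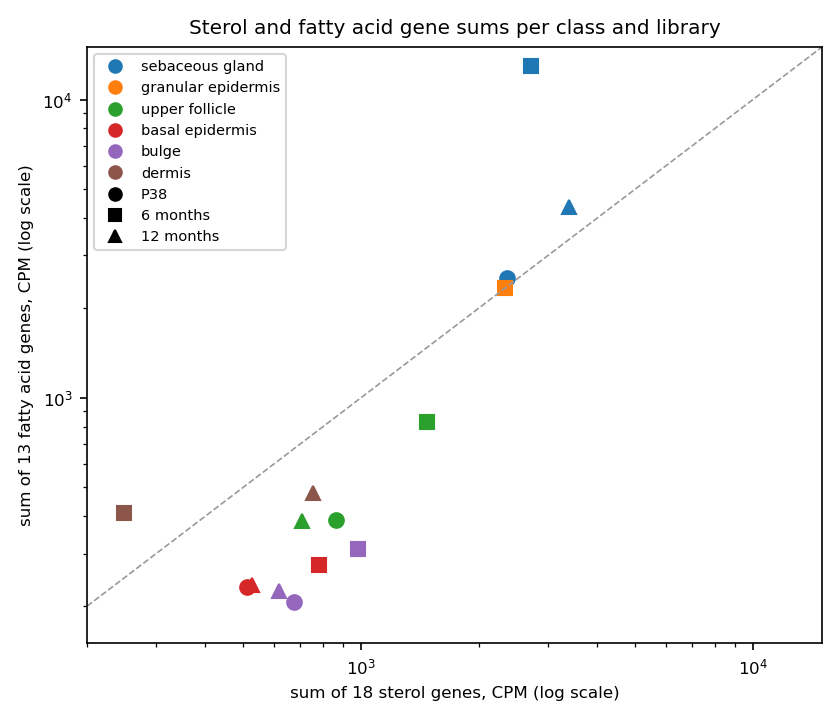
Sum of the 18 sterol genes against the sum of the 13 fatty acid genes in CPM (both axes on a log scale), 1 point per class (colour) and library (shape), with a dashed line where both are equal. The 3 sebaceous points lie on the fatty acid side of the line, up to 12934 CPM at 6 months, and all basal, bulge and upper follicle points on the sterol side.

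Ages were set side by side without a test. In the sebaceous sums Acly, Fasn, Scd1, Elovl3 and Elovl6 were lowest at P38, but the order turned for Scd1 in the median cell, which was highest at P38 as given above. For Elovl6 the medians over cells with at least 1000 genes were 71.7, 107 and 57.2 CPM at P38, 6 months and 12 months. Scd1 had 4318, 3217 and 1274 UMIs behind its values, and exact Poisson 95% intervals of 1775 to 1885, 4454 to 4774 and 2148 to 2400 CPM. The sums of Acat2, Mvd, Lss and Fdps were highest at 12 months, when 5 of the 36 cells carried 75% of Fdps, 78.8% of Mvd, 80% of Acat2 and 82.4% of Lss UMIs. The median such cell was highest at P38 for Fdps, at 147 CPM against 38.3 and 82.1 CPM, and for Acat2, at 38.7 CPM against 0 and 0. Sterol gene sums in basal, bulge and upper follicle cells were highest at 6 months. In the dermis the sum was larger at 12 than at 6 months. Age, sex, hair cycle stage and depth cannot be told apart in these values.

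Beyond the 34 genes, 28 further genes of the same pathways were listed, of which 24 were tested. In sebaceous against basal cells 14 of them were higher and 0 lower, beside the background of 9.84% and 11.4%. Slc25a1, which exports citrate from mitochondria, held 158, 143 and 246 CPM against 15.2, 13.1 and 18 CPM (log2 fold change 3.34 ± 0.25, adjusted p = 3.21e-06). Acss2, which makes acetyl-CoA from acetate, held 70.8, 57.3 and 112 CPM against 3.67, 1.51 and 1.41 CPM (log2 fold change 4.87 ± 0.58, adjusted p = 1.38e-04), and Me1, a source of NADPH, 145, 307 and 212 CPM against 12.2, 34.8 and 19.8 CPM (log2 fold change 3.20 ± 0.27, adjusted p = 7.32e-06). The enzymes that complete each elongation cycle were higher too. Hsd17b12 held 444, 665 and 357 CPM against 64.7, 59.6 and 58.8 CPM (log2 fold change 2.82 ± 0.25, adjusted p = 9.50e-06), and Tecr 1188, 1048 and 1888 CPM against 240.0, 201 and 279.7 CPM (log2 fold change 2.30 ± 0.17, adjusted p = 3.32e-06). Hacd2 and Hacd3, the dehydratases, had log2 fold changes of 2.97 and 2.16. Of the regulators, Scap, which escorts SREBP, was higher by 0.96 on the log2 scale, and Nr1h3, the sterol-sensing receptor LXR alpha, held 14.4, 8.6 and 14.3 CPM in sebaceous cells and had 2, 0 and 0 UMIs in basal cells. The other higher genes were Acacb, Fads3, Fads6, Mid1ip1 and Stard4. Fads3 reached 403 CPM at 6 months and at most 1.78 CPM in the other sebaceous libraries. In granular against basal cells Me1, Mid1ip1, Stard4, Hacd2 and Nr1h2 were higher and none was lower.

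Markers of other cells were looked at beside these results. In sebaceous cells Adipoq, Plin1, Retn and Lep were at 0, and the 6 adipocyte genes summed to at most 8.91 CPM. The 7 stress genes induced by dissociation summed to 3634 to 7301 CPM in sebaceous cells and 7533 to 17680 CPM in basal cells, without overlap, and their part in the differences was not tested. Proliferation genes summed to 125 to 311 CPM in sebaceous and 164 to 386 CPM in basal cells. The 8 sebaceous markers summed to 64.2 CPM in granular cells, with Pparg, Awat2, Mc5r and Far2 at 0, against 5233 to 6483 CPM in sebaceous cells. The 7 granular markers summed to at most 110.4 CPM in sebaceous cells and to 99419 CPM in granular cells.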

How the data were processed

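Per the labels and file headers, the deposited files are whole-number UMI counts per gene and cell barcode made by the authors with Cell Ranger, version 6.1.2 in the submitters' processing notes and at P38, and 6.0.0 in the headers at 6 and 12 months. The libraries held 2397, 4761 and 5421 barcodes and 40509290, 48722038 and 48887123 UMIs at P38, 6 months and 12 months. Following the published limits, a cell was kept if its gene count lay between 200 and 5000 and its mitochondrial share below 15%, leaving 2109, 3502 and 3240. The study states the same number of cells at P38, many fewer at 6 months and slightly fewer at 12 months. Many cells analysed here at 6 months are therefore outside the number that the study states. Barcodes found in more than 1 library were removed. No doublet caller was run.

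Each cell was scored as the mean z-score, capped at 5, of each class's markers. A cell joined a class with a score above 0.5, a lead over the next class above 0.25 and at least 3 of its markers detected. The spinous list (Krt1 and Krt10) was set aside for cells that otherwise scored highest as granular. Granular cells therefore needed no lead over it. The gate replaced the authors' annotation, which was not used here, so a class may differ from the study's. The members, marker lists and tests were chosen with earlier results of these data known. All 34 members may be named by rule. Counts summed per library and class were fitted with edgeR 4.0.16 (R 4.3.3) in 1 quasi-likelihood fit with TMM factors, library as a block, and Benjamini-Hochberg adjustment over 13106 genes. The library is the pairing of classes, since classes of a library come from the same skin. Counts were also simulated for sebaceous against basal cells over 13106 genes with 200 changed. On these counts the fit recovered 68% of the changes of 2 and 5% of those of 1 on the log2 scale. It called 0.0155% of unchanged genes. These shares describe the simulated counts only. In the real counts the main fit called 21.3% of all genes between these classes, and recovery there was not tested. Alternatives used DESeq2 1.42.0, Seurat 5.3.0 clusters, other filters and each library left out. Intervals are exact Poisson 95% intervals of counting error only.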

Additional observations from a re-analysis of the deposited data

Results flagged for a closer look

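Some genes had log2 ratios between classes that pointed one way in one library and the opposite way in another. The difference between ages was not tested, because each age has 1 library. Against basal cells, sebaceous Sc5d had a log2 ratio of 1.0 at 6 months and -1.60 at P38, and Elovl7 had 0.94 at 6 months, -1.29 at P38 and -4.05 at 12 months. Against the upper follicle, sebaceous Elovl4 had 3.60 at 6 months, -2.30 at P38 and -1.75 at 12 months. Dermal cells against basal cells had opposite signs at 12 and 6 months for 7 genes: Hsd17b7 at 0.74 and -1.42, Cyp51 at 1.57 and -2.75, Msmo1 at 1.10 and -1.13, Sc5d at 1.14 and -2.04, Idi1 at 1.45 and -1.98, Sqle at 3.13 and -1.47, and Srebf2 at 0.79 and -1.42. The dermal value was the higher one at 12 months for all 7.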

How the results depend on the processing

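Across 15 alternatives, 14 of the 26 genes called between sebaceous and basal cells kept their call in each alternative that tested them, 12 of 17 against the upper follicle, 5 of 12 between granular and basal cells, and 5 of 10 between granular and sebaceous cells. The corresponding counts were 1 of 5 for the upper follicle, 0 of 4 for the bulge and 1 of 7 for the dermis. The share of all called genes that kept their call in each alternative was not counted. These counts therefore do not show whether the listed genes are more stable than other called genes. Leaving out 1 library at a time gave 15 to 26 calls for sebaceous against basal cells, 12 to 23 against the upper follicle, 8 to 14 for granular against basal cells, 2 to 7 for the upper follicle and 1 to 3 for the bulge. In the same order, 11.2% to 17%, 9.19% to 20.9%, 18.6% to 21.1%, 8.49% to 12.1% and 7.35% to 8.79% of all genes were called. The main fit called 21.3%, 25.3%, 21.1%, 17.4% and 13.4% of all genes. The alternative with all barcodes took every deposited barcode except those shared between libraries. It called 27 genes in sebaceous cells against the upper follicle and 17 between granular and sebaceous cells. The share of all genes called was then 34.8% and 33.4% in place of 25.3% and 24.3%. Without the cells in the top 5% of UMIs, granular cells had 7 calls against basal and 5 against sebaceous cells, where 8.18% and 10.9% of all genes were called. The upper follicle had 11 calls with clusters, 8 with a stricter gate and 3 without the low-count filter, where 32.5%, 21.5% and 10.2% of all genes were called. Without that filter the bulge had 1 call, and 8.16% of all genes were called. Without the replicate block, the library, calls numbered 23, 17, 11, 1, 2, 6 and 8 for sebaceous against basal, sebaceous against upper follicle, granular, upper follicle, bulge and dermis against basal, and granular against sebaceous cells, with 13.1%, 15.8%, 19.2%, 9.16%, 6.9%, 29.3% and 21.6% of all genes called. The sterol to fatty acid log2 ratio of the dermis changed sign, to 0.054 with all barcodes, 0.0020 with clusters and -0.73 to 0.66 with a library left out. That of granular cells was 0.0050, and moved to 0.22 with all barcodes, 0.018 with at least 1000 genes per cell, 0.0075 with the stricter gate, 0.030 with shared barcodes, 0.041 without the 5 deepest cells and 0.11 without the top 5% of UMIs. Among single genes, Mvk was 1.24 against the upper follicle and Scd1 1.41 in granular against basal cells with all barcodes, Elovl4 was -2.26 without 6 months and 2.40 without 12 months against the upper follicle, and Idi1 was -2.08 without 12 months and 1.23 without 6 months in the dermis. The cause of these changes was not tested. Clusters gave no granular class, and without 6 months no granular value exists. Of the 69 granular cells, 43 fell into clusters named from the spinous list and 24 into clusters named from inner root sheath markers. Values of Fads1, Fads2 and Tm7sf2 rest on few UMIs.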

Other observations

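Cells that the published filter removes for holding 5000 genes or more were scored with the same markers, and 41, 36 and 2 of them passed as sebaceous at P38, 6 months and 12 months. Their sterol genes summed to 10558, 9568 and 4056 CPM and their fatty acid genes to 18827, 34419 and 5532 CPM. Basal cells of the same depth, numbering 26, 11 and 14, held 506, 631 and 980 CPM of sterol and 220, 261 and 224 CPM of fatty acid genes. Within the filter, the 4, 24 and 4 sebaceous cells under 1000 genes held 9546, 7225 and 10851 CPM of sterol genes, against 2341, 2605 and 3359 CPM in the sebaceous cells with 1000 genes or more. The values at 12 months rest on 2 and 4 cells. Doublets among the cells of 5000 genes or more were not tested.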
